A study of Mus musculus with 6 samples.

Results

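The Wnt pathway was followed in MOSE-PAX8 and MOSE-NEO cells through 38 of the 25006 genes in the count tables: 10 Wnt ligands, 12 receptors and co-receptors, 6 secreted antagonists, and 10 TCF factors, surface feedback genes and beta-catenin targets. The genes were taken by name from a list of pathway members that was drawn up with earlier results of these data known, and each symbol matched 1 Ensembl identifier. MOSE cells are murine ovarian surface epithelial cells, the layer that covers the ovary. MOSE-PAX8 is a stable line that overexpresses the paired-box transcription factor PAX8, and MOSE-NEO is the stable line used as its reference. Both lines grew under the selection drug G418 at 0.05 mg/mL, and total RNA of 3 libraries per line was sequenced. Each line is the only one of its kind in the study, so an effect of PAX8 and any other difference between the lines cannot be told apart. The sources used here do not give whether a line is 1 clone or which promoter drives PAX8.

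Wnt proteins are secreted lipid-modified ligands that bind Frizzled receptors. With the co-receptors LRP5 and LRP6 they stop the destruction of beta-catenin, which then enters the nucleus and acts with TCF/LEF factors on target genes such as Axin2. Other Wnts act through Frizzled and the ROR receptors without beta-catenin, in part through the planar cell polarity proteins. Secreted SFRP, DKK and WIF1 proteins hold ligands or co-receptors back, and in the female reproductive tract Wnt4 is known for its part in ovary and Mullerian duct development.

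Library totals ran from 30621528 to 36367825 counts in MOSE-PAX8 and from 23623762 to 32057173 counts in MOSE-NEO. Pax8 itself had 2570, 2973 and 3544 counts in the MOSE-PAX8 libraries, against 0, 1 and 1 in the MOSE-NEO libraries, in accord with the labels. Of 10 markers of the ovarian surface and mesothelium, all were above the low-count filter and 7 were called lower, against 16.1% of all tested genes. Their summed level was 7540 to 9138 CPM in MOSE-PAX8 (read counts scaled to a common library size with TMM factors) and 12675 to 14003 CPM in MOSE-NEO. Of the 4 keratin genes among them, Krt7 averaged 1038 CPM in MOSE-PAX8 and 1910 CPM in MOSE-NEO and was called lower, and Krt18 averaged 584 CPM in MOSE-PAX8 and 661 CPM in MOSE-NEO and was not called. Krt8 and Krt19 averaged 0.317 and 0.405 CPM in MOSE-PAX8 and 0.788 and 0.278 CPM in MOSE-NEO. Krt8 was called lower (edgeR adjusted p = 0.019) and Krt19 was not called. Of 5 stromal fibroblast markers 3 were tested and 1 was called lower, beside the same 16.1% of all tested genes. Their summed level was 12400 to 13186 CPM in MOSE-PAX8 and 19901 to 23254 CPM in MOSE-NEO. The called gene was Col3a1, most of the sum, with 9400 CPM in MOSE-PAX8 and 17615 CPM in MOSE-NEO. Dcn (1419 and 1572 CPM) and Col1a1 (2005 and 2545 CPM) overlapped between the lines and were not called. Pdgfra and Lum had 6 and 12 counts in MOSE-PAX8 and 10 and 3 counts in MOSE-NEO. The 5 granulosa cell markers summed to 24.4 to 26.1 CPM in MOSE-PAX8 and 27.3 to 32.3 CPM in MOSE-NEO, with Cyp19a1 and Fshr at 0 counts. Most of that sum was Inha, called lower with 23.2 CPM in MOSE-PAX8 and 30.3 CPM in MOSE-NEO, while Foxl2 was called higher, with 57, 47 and 78 counts in MOSE-PAX8 and 0, 1 and 0 counts in MOSE-NEO (edgeR adjusted p = 0.000117). Among leukocyte markers Adgre1 was at 0 counts, and the summed level was 1.7 to 2.77 CPM in MOSE-PAX8 and 0.0435 to 0.166 CPM in MOSE-NEO. Most of it in MOSE-PAX8 was Ptprc, called higher with 60, 49 and 87 counts in MOSE-PAX8 and 0, 0 and 1 counts in MOSE-NEO (edgeR adjusted p = 0.000103). Endothelial markers summed to 0.126 to 0.493 CPM in MOSE-PAX8 and 0.348 to 0.996 CPM in MOSE-NEO. The part of these marker differences in the results below was not tested. In MOSE-PAX8 library 2 and MOSE-NEO library 1, lincRNA genes took 0.33% and 0.317% of the counts, against 0.146% to 0.195% in the other 4 libraries. In bulk RNA, fewer cells with a transcript and less of it per cell cannot be told apart.

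The comparison asked which genes of the pathway differ in RNA level between the MOSE-PAX8 and MOSE-NEO lines. Of the 38 genes 23 passed the low-count filter and were tested, and the other 15 had too few counts. In edgeR's quasi-likelihood test with Benjamini-Hochberg adjustment over all 12313 tested genes, 9 of the 23 were called higher in MOSE-PAX8 and 3 lower at an adjusted p below 0.05. The same test called 33.9% of all tested genes, 17.9% higher and 16.1% lower, which were not chosen with results known as the 38 genes were. A called rise reached 2-fold in 6 of the 23 genes and a called fall in 1, set against 6.07% and 3.15% of all tested genes. The median log2 fold change (MOSE-PAX8 over MOSE-NEO) was 0.09 over the 23 genes and 0.01 over all tested genes. The libraries of the lines did not overlap in 9 of the 23 genes with MOSE-PAX8 higher and in 5 with MOSE-PAX8 lower, against 25.3% and 22.2% of all tested genes (47.6% in either direction). With the 2 lincRNA-rich libraries left out, 6 were called higher and 3 lower. Over all 12277 genes tested in that setting, 1834 were called higher and 1725 lower, in place of 2199 and 1979. The largest rises were those of the receptor gene Ror1, the ligand gene Wnt4 and the R-spondin receptor gene Lgr4, and the largest falls those of the ligand genes Wnt5b and Wnt9a and of the repressor gene Tcf7l1.

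**Figure D1:**
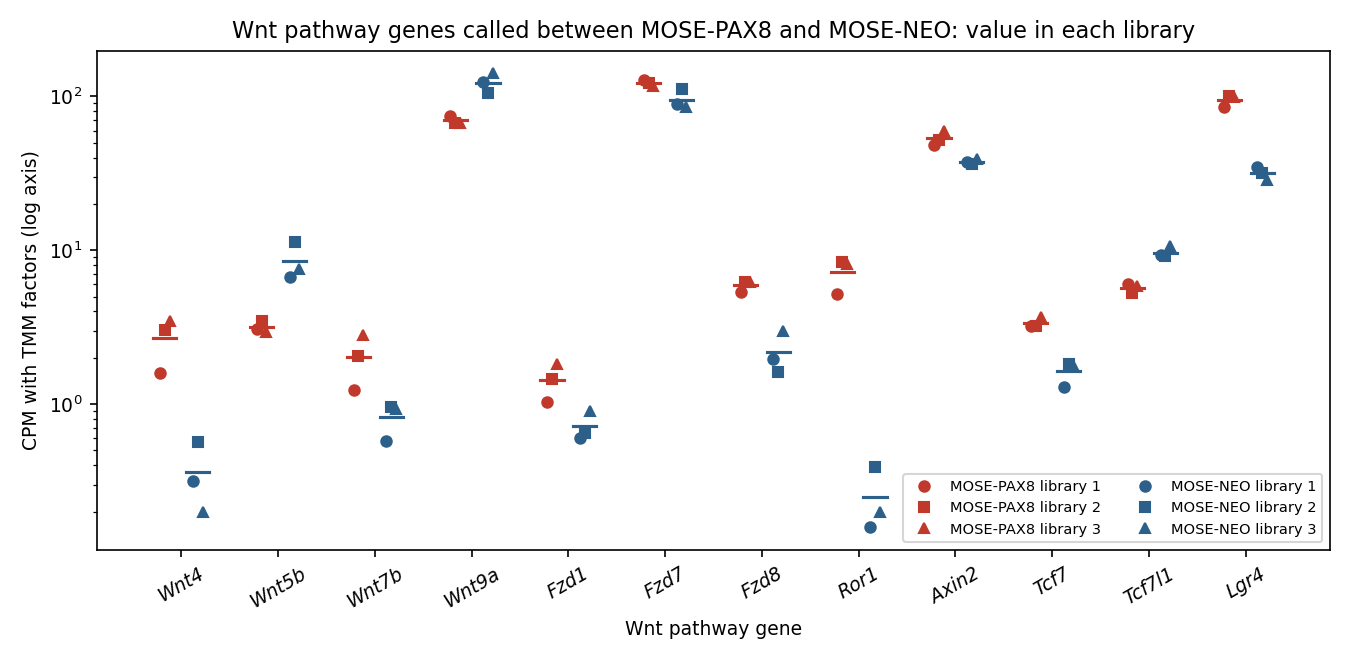
Level of each of the 12 called Wnt pathway genes in each library, in CPM with TMM factors on a log axis; MOSE-PAX8 libraries are red, MOSE-NEO libraries blue, the symbol gives the library number and the bar is the mean of 3 libraries. In every gene shown the 3 red points lie wholly above or wholly below the 3 blue ones, with the widest gap for Ror1. The genes shown were picked by the test on these same libraries, which favours such a gap, and 47.6% of all tested genes did not overlap.

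Among the 10 ligand genes, 6 were tested, of which 2 rose and 2 fell (66.7% called, against 33.9% of all tested genes). The genes that rose were rare transcripts, while those that fell included the most abundant ligand of both lines. Wnt4, a ligand of ovary and kidney development (chr4:137277489-137299726 on mm10, as are all positions given), had 1.59, 3.05 and 3.45 CPM in MOSE-PAX8, against 0.318, 0.565 and 0.199 CPM in MOSE-NEO. The lowest MOSE-PAX8 library thus stood above the highest MOSE-NEO library, and the log2 fold change was 2.93 ± 0.44 (SE, edgeR adjusted p = 0.00123). Wnt7b, an epithelial ligand that can signal through beta-catenin (chr15:85535437-85582473), had 1.23, 2.04 and 2.8 CPM in MOSE-PAX8 and 0.572, 0.956 and 0.93 CPM in MOSE-NEO. Its log2 fold change was 1.31 ± 0.36 (SE, edgeR adjusted p = 0.0231), and the groups did not overlap. The call was lost in several alternatives: the edgeR adjusted p was 0.0973 without MOSE-PAX8 replicate 3, 0.0791 without MOSE-NEO replicate 1, 0.0517 without MOSE-NEO replicate 2 and 0.123 without the lincRNA-rich libraries. A gene on the opposite strand, AU022754, shares 324 bases (6.61%) of the Wnt7b exons and had 1, 2 and 2 counts in MOSE-PAX8 and 0 in each MOSE-NEO library.

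Wnt9a, a ligand of joint development (chr11:59306928-59333552), had 75.1, 67.3 and 67.1 CPM in MOSE-PAX8, against 124, 105 and 141 CPM in MOSE-NEO. Every MOSE-PAX8 library was lower than every MOSE-NEO library, with a log2 fold change of -0.82 ± 0.11 (SE, edgeR adjusted p = 0.000787). Wnt5b, a relative of the non-canonical ligand Wnt5a (chr6:119432531-119544347), had 3.09, 3.46 and 2.96 CPM in MOSE-PAX8 and 6.7, 11.3 and 7.5 CPM in MOSE-NEO. Its log2 fold change was -1.42 ± 0.21 (SE, edgeR adjusted p = 0.00133), and MOSE-NEO library 2 was the highest of the 6.

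Wnt6 and Wnt10b overlapped between the lines. Wnt6 had 1.09, 1.51 and 1.17 CPM in MOSE-PAX8 and 1.43, 1.61 and 1.16 CPM in MOSE-NEO, with a log2 fold change of -0.15 ± 0.25 (SE, edgeR adjusted p = 0.691). Wnt10b had 0.711, 1.16 and 0.709 CPM in MOSE-PAX8 and 1.75, 0.696 and 0.697 CPM in MOSE-NEO, so that the sign of its log2 fold change of -0.3 ± 0.43 (SE) was set by MOSE-NEO library 1 and turned to 0.29 without it. The other 4 ligand genes were too rare to test. Wnt11 had 32 counts in the MOSE-PAX8 libraries together and 14 in the MOSE-NEO libraries, a ratio of 1.92 with a 95% counting interval of 0.995 to 3.89. Wnt10a had 28 and 29 counts, Wnt7a 10 and 7, and Wnt2 0 and 2, each in MOSE-PAX8 and then MOSE-NEO.

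The start regions of 5 called genes, 3 ligands and the 2 surface receptors Ror1 and Lgr4, were picked with their changes known and are printed so that the motifs in them can be read, each from 250 bases before to 50 bases after a RefSeq start on GRCm38.p6 (mm10), 5′ to 3′ along the gene. RefSeq windows matched 26 of the 38 genes, in 32 windows. Capitals mark CTTTGA or CTTTGT, the core of TCF/LEF sites, and GTCACGC, a core of sites bound by the paired domain of PAX2, PAX5 and PAX8, on either strand. No marked letters of 1 motif overlapped those of another. Wnt4 lies at chr4:137277385-137277684 on the plus strand, Wnt5b (the start farthest upstream of 3) at chr6:119544298-119544597 on the minus strand, Wnt9a at chr11:59306680-59306979 on the plus strand, Ror1 at chr4:100095541-100095840 on the plus strand and Lgr4 at chr2:109917397-109917696 on the plus strand.
Wnt4: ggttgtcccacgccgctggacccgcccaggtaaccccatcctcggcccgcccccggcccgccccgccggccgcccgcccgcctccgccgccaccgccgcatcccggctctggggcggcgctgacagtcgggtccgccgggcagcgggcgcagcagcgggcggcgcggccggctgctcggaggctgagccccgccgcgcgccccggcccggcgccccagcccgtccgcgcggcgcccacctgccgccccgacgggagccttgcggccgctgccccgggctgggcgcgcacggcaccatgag
Wnt5b: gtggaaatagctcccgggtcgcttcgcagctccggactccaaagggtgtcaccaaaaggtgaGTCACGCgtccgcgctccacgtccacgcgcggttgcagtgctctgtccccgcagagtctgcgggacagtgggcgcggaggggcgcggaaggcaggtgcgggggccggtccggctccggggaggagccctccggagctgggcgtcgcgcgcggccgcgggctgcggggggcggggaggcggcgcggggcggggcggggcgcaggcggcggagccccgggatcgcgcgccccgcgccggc
Wnt9a: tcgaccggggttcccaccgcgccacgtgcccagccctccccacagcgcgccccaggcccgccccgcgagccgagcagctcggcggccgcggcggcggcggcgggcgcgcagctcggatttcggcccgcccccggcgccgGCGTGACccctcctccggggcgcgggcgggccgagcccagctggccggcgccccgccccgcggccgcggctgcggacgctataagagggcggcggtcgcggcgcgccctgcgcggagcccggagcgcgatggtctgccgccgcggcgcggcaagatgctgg
Ror1: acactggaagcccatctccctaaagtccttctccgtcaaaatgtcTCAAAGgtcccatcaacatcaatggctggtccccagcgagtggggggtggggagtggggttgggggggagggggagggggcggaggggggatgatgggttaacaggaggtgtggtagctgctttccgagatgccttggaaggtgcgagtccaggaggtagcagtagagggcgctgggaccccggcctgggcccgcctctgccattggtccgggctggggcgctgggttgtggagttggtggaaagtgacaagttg
Lgr4: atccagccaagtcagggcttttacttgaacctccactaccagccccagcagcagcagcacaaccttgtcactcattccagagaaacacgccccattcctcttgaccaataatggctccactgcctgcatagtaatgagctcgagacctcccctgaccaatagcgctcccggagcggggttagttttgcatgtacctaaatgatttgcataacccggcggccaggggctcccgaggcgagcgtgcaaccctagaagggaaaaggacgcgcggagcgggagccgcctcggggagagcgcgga

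The windows of Wnt5b and Wnt9a, both lower in MOSE-PAX8, hold the paired-domain core at positions -188 and -111 relative to the start. These 2 were the only windows with this motif among the 32 of the pathway genes (6.25%), against 2.09% of all 32851 windows. Their letters are 78% (Wnt5b) and 83.3% (Wnt9a) G or C, and the set of all windows was not matched for this. The share rests on 2 windows, and its difference from that of all windows was not tested. The Ror1 window holds a TCF/LEF core at position -205, and the Wnt4 and Lgr4 windows hold none of the motifs. A TCF/LEF core was present in 9 of the 32 windows (28.1%), against 31.2% of all windows. The window of Axin2, a beta-catenin target, holds none, nor do the 2 windows of Tcf7, while the Fzd1 window holds both TCF/LEF cores and the Fzd7 window 1. Among genes called lower, the Tcf7l1 window holds a TCF/LEF core at position -28 and the window of another Wnt5b start 1 at position -71. A match of letters is a description of the window and not a binding site.

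Levels of different genes were compared as CPM per kb of exon. Over all 19 mouse Wnt ligand genes the summed level was 31.4, 29.9 and 29.4 CPM per kb in MOSE-PAX8 and 50.3, 46.1 and 53.9 CPM per kb in MOSE-NEO, so that the libraries of the lines did not overlap. Wnt9a supplied most of it, with 21 ± 1.38 CPM per kb in MOSE-PAX8 and 37 ± 5.36 CPM per kb in MOSE-NEO (SD, n = 3). Its share of the summed level was 69.3% ± 2.2 in MOSE-PAX8 and 73.5% ± 5.05 in MOSE-NEO (SD, n = 3), and the shares overlapped between libraries. Wnt5a came next with 19% ± 0.124 of the summed level in MOSE-PAX8 and 16.1% ± 2.77 in MOSE-NEO (SD, n = 3), and Wnt5b made up 3.95% ± 0.356 in MOSE-PAX8 and 6.5% ± 2.37 in MOSE-NEO. The share of Wnt4 was 1.2%, 2.43% and 2.8% in MOSE-PAX8 and 0.151%, 0.292% and 0.0882% in MOSE-NEO, so its rise left it a minor part of the ligand RNA.

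**Figure D2:**
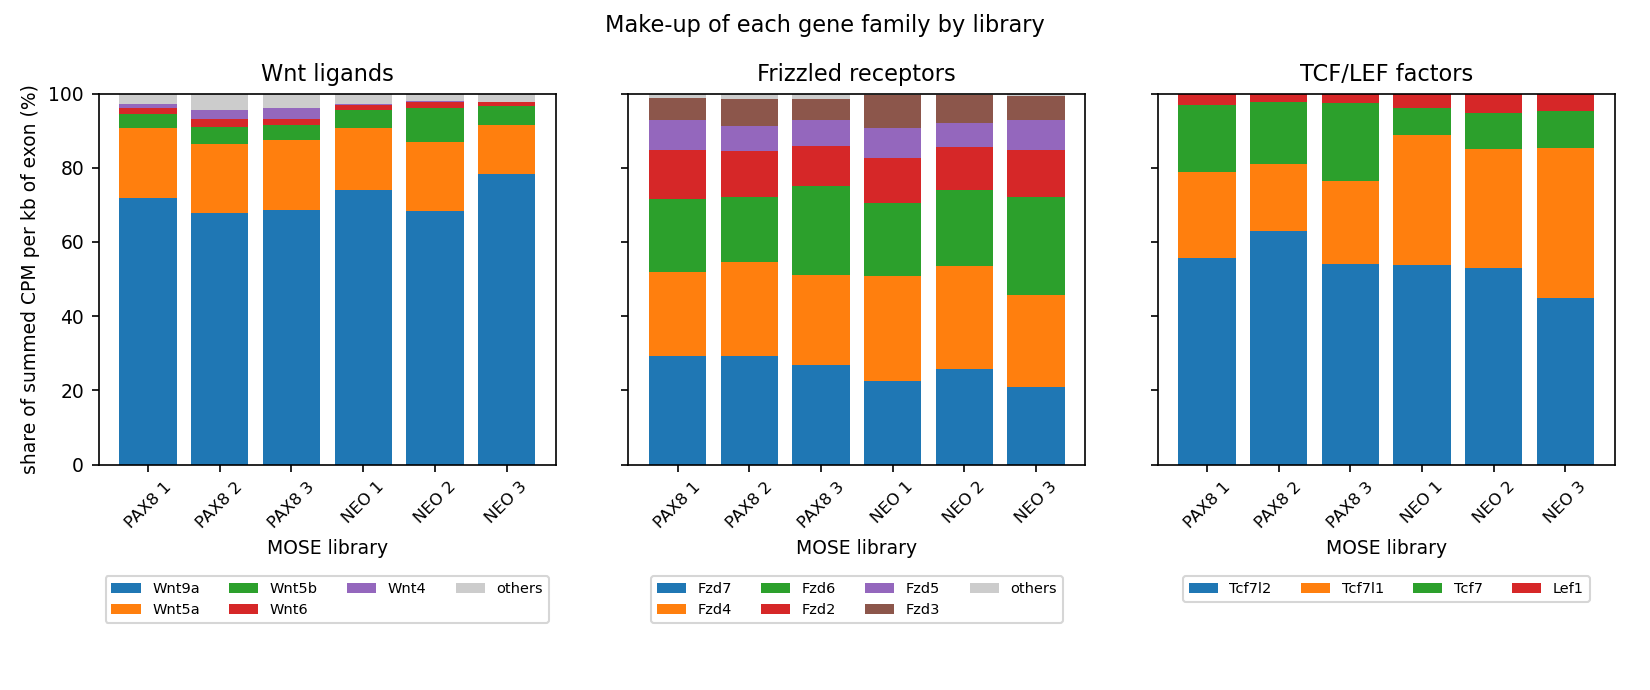
Share of the summed CPM per kb of exon taken by each gene of 3 families (19 Wnt ligands, 10 Frizzled receptors and 4 TCF/LEF factors), 1 bar per library with MOSE-PAX8 libraries left of MOSE-NEO libraries. Wnt9a fills 67.7% to 71.8% of the ligand bar in MOSE-PAX8 and 68.3% to 78.4% in MOSE-NEO, and Tcf7 fills 16.5% to 21.1% of the TCF/LEF bar in MOSE-PAX8 and 7.35% to 10.2% in MOSE-NEO.

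Of the 12 receptor and co-receptor genes 10 were tested, and in edgeR 4 rose and none fell. That was 40% called, against 33.9% of all tested genes. The abundant Frizzled genes Fzd2, Fzd4, Fzd5 and Fzd6 overlapped between the lines. Ror1, a receptor tyrosine kinase-like protein that binds Wnt5a (chr4:100095791-100444765), had 5.17, 8.45 and 8.2 CPM in MOSE-PAX8, against 0.159, 0.391 and 0.199 CPM in MOSE-NEO. The raw counts behind these levels were 189, 269 and 266 in MOSE-PAX8 and 5, 9 and 6 in MOSE-NEO. Every MOSE-PAX8 library was at least an order of magnitude higher than every MOSE-NEO library, and the log2 fold change was 4.9 ± 0.35 (SE, edgeR adjusted p = 2.68e-05). Ror2, the other receptor of this kind, had 1 count in all MOSE-PAX8 libraries together and 0 in MOSE-NEO, where a count of 0 allows up to 0.0953 to 0.13 CPM per library (the level of 3 counts, counting error only).

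Fzd8, a Frizzled receptor gene on chromosome 18 (chr18:9212163-9218136), had 5.33, 6.22 and 6.23 CPM in MOSE-PAX8 and 1.97, 1.61 and 2.99 CPM in MOSE-NEO. The groups stood apart, and the log2 fold change was 1.43 ± 0.23 (SE, edgeR adjusted p = 0.00197). Fzd1, a receptor for Wnts such as Wnt3a (chr5:4753839-4758035), had 1.04, 1.45 and 1.82 CPM in MOSE-PAX8 and 0.604, 0.652 and 0.896 CPM in MOSE-NEO, with a log2 fold change of 0.99 ± 0.31 (SE, edgeR adjusted p = 0.0374). Fzd7, a Frizzled gene of stem and epithelial cells (chr1:59482424-59486955), had 127, 122 and 117 CPM in MOSE-PAX8 and 89.9, 111 and 84.7 CPM in MOSE-NEO, a small difference of 0.36 ± 0.11 on the log2 scale (SE, edgeR adjusted p = 0.0317). Both of these calls were fragile. For Fzd1 the adjusted p was 0.0697 with DESeq2, 0.159 without MOSE-PAX8 replicate 3, 0.0696 without MOSE-PAX8 replicate 2, 0.115 without MOSE-NEO replicate 1, 0.114 without MOSE-NEO replicate 2 and 0.159 without the lincRNA-rich libraries. For Fzd7 the edgeR adjusted p was 0.0949, 0.0552 and 0.0631 without MOSE-PAX8 replicates 1, 2 and 3, 0.0851 and 0.0876 without MOSE-NEO replicates 1 and 3, and 0.128 without the lincRNA-rich libraries.

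The other Frizzled genes overlapped between the lines. Fzd4, which also binds the non-Wnt ligand norrin, had 146, 159 and 156 CPM in MOSE-PAX8 and 167, 175 and 148 CPM in MOSE-NEO, with a log2 fold change of -0.09 ± 0.09 (SE, edgeR adjusted p = 0.464). Fzd6, a planar polarity receptor, had 90.6, 77.4 and 110 CPM in MOSE-PAX8 and 83.5, 94.2 and 114 CPM in MOSE-NEO. The log2 fold changes of Fzd2, Fzd5 and Fzd6 were 0.08 ± 0.09, 0.02 ± 0.1 and -0.07 ± 0.15 (SE), with intervals of 2 SE on each side of -0.1 to 0.26, -0.18 to 0.22 and -0.36 to 0.23. Fzd9 had 1 count in MOSE-PAX8 and 0 in MOSE-NEO.

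Per kb of exon, Fzd7, Fzd4 and Fzd6 led the Frizzled genes in both lines. In MOSE-PAX8 the order was Fzd7 with 26.9 ± 1.11, Fzd4 with 22.8 ± 1.01 and Fzd6 with 19.2 ± 3.35 CPM per kb (SD, n = 3). In MOSE-NEO it was Fzd4 with 24.3 ± 2.09, Fzd7 with 21 ± 3.11 and Fzd6 with 20.1 ± 3.16 CPM per kb (SD, n = 3). Fzd7 lay above Fzd4 in all 3 MOSE-PAX8 libraries and below it in all 3 MOSE-NEO libraries. Across the MOSE-NEO libraries their ranges of 18.7 to 24.6 (Fzd7) and 22 to 26.1 CPM per kb (Fzd4) overlapped. The summed level of the 10 Frizzled genes was 94.6 ± 1.86 CPM per kb in MOSE-PAX8 and 90.6 ± 3.7 CPM per kb in MOSE-NEO (SD, n = 3), and the libraries overlapped.

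The co-receptor genes Lrp5 and Lrp6 were slightly lower in every MOSE-PAX8 library without passing the test. Lrp6 had 218, 220 and 195 CPM in MOSE-PAX8 and 290, 243 and 222 CPM in MOSE-NEO, with a log2 fold change of -0.26 ± 0.11 (SE, edgeR adjusted p = 0.111). Lrp5 had 86.8, 77.3 and 82.3 CPM in MOSE-PAX8 and 87.1, 90.2 and 89.4 CPM in MOSE-NEO, with a log2 fold change of -0.11 ± 0.07 (SE, edgeR adjusted p = 0.26). Their neighbours on the chromosome, the nearest 25 tested genes on each side, had median log2 fold changes of 0.1 (Lrp6) and 0.2 (Lrp5). With that local median removed, both were called lower (edgeR adjusted p = 0.0427 for Lrp6 and 0.0133 for Lrp5), and so was Fzd4 (0.0282), whose neighbours had a median of 0.22. None of these genes was called in any other alternative. The local median entered the fit as a fixed value, so these p-values leave out its own error.

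Secreted antagonists were nearly absent from both lines, apart from Sfrp2. Of the 6 genes this was the only one tested. Sfrp2, a Frizzled-related protein that binds Wnts, had 6.48, 6.03 and 6.04 CPM in MOSE-PAX8 and 4.23, 5 and 6.34 CPM in MOSE-NEO. MOSE-NEO library 3 lay inside the MOSE-PAX8 range, and the log2 fold change of 0.25 ± 0.17 was not called (SE, edgeR adjusted p = 0.299). Its neighbours on chromosome 3 had a median of -0.44, and with that local median removed Sfrp2 was called higher (edgeR adjusted p = 0.0184, log2 fold change 0.69). Sfrp2 was called in no other alternative, and this p-value too leaves out the error of the local median.

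The remaining antagonist genes gave few reads. Dkk1, which blocks LRP5 and LRP6, had 0 counts in all 6 libraries, which allows up to 0.082 to 0.0943 CPM per library in MOSE-PAX8 and 0.0953 to 0.13 CPM in MOSE-NEO. Dkk3, a divergent member of that family, had 10 counts in MOSE-PAX8 and 2 in MOSE-NEO, a ratio of 4.2 with a 95% counting interval of 0.894 to 39.4. Sfrp4 had 24 and 12 counts in MOSE-PAX8 and MOSE-NEO, a ratio of 1.68 with an interval of 0.807 to 3.68. Sfrp1 and Wif1 each had 0 counts in MOSE-PAX8 and 1 in MOSE-NEO.

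The nuclear factors and feedback genes moved in both directions, with 3 of 6 tested genes higher and 1 lower (66.7% called, against 33.9% of all tested genes). Lgr4, a receptor for R-spondins, which keep Wnt receptors on the cell surface (chr2:109917647-110014257), had 85.4, 101 and 99.5 CPM in MOSE-PAX8, against 34.9, 32 and 28.6 CPM in MOSE-NEO. Every MOSE-PAX8 library was higher than every MOSE-NEO library, and the log2 fold change was 1.58 ± 0.1 (SE, edgeR adjusted p = 1.51e-05). Per kb of exon Lgr4 ranked 5 among the 38 genes in MOSE-PAX8 and 10 in MOSE-NEO. Its paralog Lgr5, a stem cell marker of the ovarian surface, had 5, 12 and 4 counts in MOSE-PAX8 and 9, 3 and 3 counts in MOSE-NEO, a ratio of 1.17 with a 95% counting interval of 0.577 to 2.45.

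Axin2, a scaffold of the beta-catenin destruction complex and a standard beta-catenin target (chr11:108920349-108950783), had 48.5, 52.1 and 59.3 CPM in MOSE-PAX8 and 37.2, 36.3 and 39.3 CPM in MOSE-NEO. All MOSE-PAX8 libraries were higher, with a log2 fold change of 0.5 ± 0.09 (SE, edgeR adjusted p = 0.00332). Znrf3, a ubiquitin ligase that removes Frizzled from the surface and is opposed by R-spondins, had 18.4, 19.6 and 18.9 CPM in MOSE-PAX8 and 21, 15.1 and 17.3 CPM in MOSE-NEO. The libraries overlapped, and its log2 fold change was 0.09 ± 0.12 (SE, edgeR adjusted p = 0.619). The related ligase gene Rnf43 had 16 counts in MOSE-PAX8 and 22 in MOSE-NEO, a ratio of 0.61 with an interval of 0.3 to 1.22. Of the naked cuticle genes, which restrain Dishevelled, Nkd2 had 5, 5 and 4 counts in MOSE-PAX8 and 2, 0 and 1 in MOSE-NEO, a ratio of 3.92 with an interval of 1.09 to 21.2. Nkd1 had 0 counts in each MOSE-PAX8 library and 1 in each MOSE-NEO library.

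The TCF genes, which encode the DNA-binding partners of beta-catenin, changed in opposite directions. Tcf7 (chr11:52252371-52283014) had 3.2, 3.21 and 3.7 CPM in MOSE-PAX8 and 1.3, 1.83 and 1.79 CPM in MOSE-NEO, with a log2 fold change of 1.04 ± 0.21 (SE, edgeR adjusted p = 0.00541). Tcf7l1, which acts mainly as a repressor (chr6:72626378-72789254), had 6.04, 5.25 and 5.86 CPM in MOSE-PAX8 and 9.25, 9.13 and 10.6 CPM in MOSE-NEO, with a log2 fold change of -0.75 ± 0.13 (SE, edgeR adjusted p = 0.00233). Neither gene had libraries that overlapped between the lines. Tcf7l2, the most abundant of the family per kb of exon, had 32.8, 40.9 and 31.7 CPM in MOSE-PAX8 and 31.9, 33.7 and 26.2 CPM in MOSE-NEO, overlapped, and had a log2 fold change of 0.2 ± 0.13 (SE, edgeR adjusted p = 0.271). Lef1, a factor whose own gene is a beta-catenin target, had 1.78, 1.6 and 1.45 CPM in MOSE-PAX8 and 2.35, 3.3 and 2.66 CPM in MOSE-NEO (log2 fold change -0.77 ± 0.22 SE, edgeR adjusted p = 0.0247).

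The summed level of the 4 factors was 6.93 ± 0.411 CPM per kb in MOSE-PAX8 and 6.89 ± 0.308 CPM per kb in MOSE-NEO (SD, n = 3). Within it the share of Tcf7 was 18.6% ± 2.33 in MOSE-PAX8 and 9.07% ± 1.52 in MOSE-NEO, and that of Tcf7l1 21.1% ± 2.67 in MOSE-PAX8 and 35.8% ± 4.19 in MOSE-NEO (SD, n = 3). With libraries left out in turn, the call of Lef1 did not hold without MOSE-PAX8 replicate 3 (edgeR adjusted p = 0.0973), MOSE-PAX8 replicate 2 (0.0541) or MOSE-NEO replicate 2 (0.0865).

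**Figure D3:**
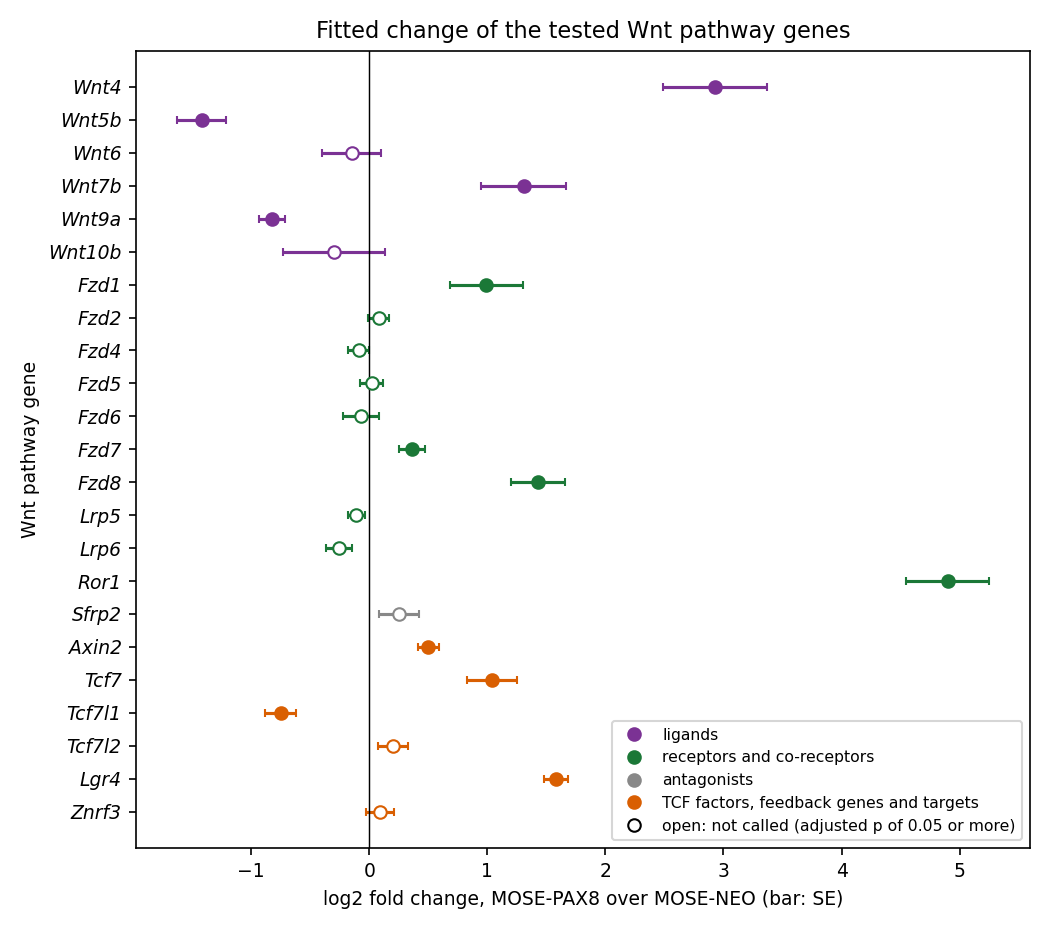
Log2 fold change, MOSE-PAX8 over MOSE-NEO, of the 23 tested Wnt pathway genes with its SE as a bar, coloured by role; filled points were called and open points were not. Ror1 stands farthest to the right at 4.9 and Wnt5b farthest to the left at -1.42, and the abundant receptor genes Fzd2, Fzd4, Fzd5 and Fzd6 lie near 0.

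A further 81 genes of the pathway, listed by role, set these genes in their context. Of these 53 were tested, and 10 were called higher and 12 lower, or 41.5% against 33.9% of all tested genes, with a median log2 fold change of -0.04. With the lincRNA-rich libraries left out, 6 were called higher and 11 lower. Over all tested genes, 1834 were then called higher in place of 2199 and 1725 lower in place of 1979. Of the 4 R-spondin genes and of the 7 further target genes, 1 each was tested in the main fit, and neither was called. Among the steps that make Wnts, Wls, the carrier that brings Wnts to the cell surface, had 234, 190 and 220 CPM in MOSE-PAX8 and 339, 330 and 362 CPM in MOSE-NEO. Its log2 fold change was -0.68 ± 0.09 (SE, edgeR adjusted p = 0.000863), while its neighbours on chromosome 3 had a median of 0.53. Porcn, the acyltransferase that lipid-modifies Wnts, had 0.66 ± 0.164 CPM in MOSE-PAX8 and 0.343 ± 0.00964 CPM in MOSE-NEO (SD, n = 3) and was not called (edgeR adjusted p = 0.0587).

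Both further ligand genes tested were called lower, as were 16.1% of all tested genes. Wnt5a had 46.7, 43.9 and 43.8 CPM in MOSE-PAX8 and 65.6, 67 and 55.2 CPM in MOSE-NEO, with a log2 fold change of -0.48 ± 0.09 (SE, edgeR adjusted p = 0.0039). The median of its neighbours on chromosome 14 was -0.41, and with that local median removed Wnt5a had a log2 fold change of -0.07 (edgeR adjusted p = 0.607). Wnt2b, a relative of Wnt2, had 0.574, 1.13 and 0.678 CPM in MOSE-PAX8 and 2.7, 1.22 and 1.99 CPM in MOSE-NEO (log2 fold change -1.33 ± 0.37 SE, edgeR adjusted p = 0.0242). That call ended with the local median removed (0.107) and, with libraries left out in turn, without MOSE-PAX8 replicate 1 (0.0793) or 3 (0.0885) or MOSE-NEO replicate 1 (0.0897) or 3 (0.0505).

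Of 4 further antagonist genes tested 3 were called lower, all at low levels, beside 16.1% of all tested genes called lower. Notum, a secreted enzyme that strips the lipid from Wnts and is itself a beta-catenin target, had 0.164, 0.157 and 0.185 CPM in MOSE-PAX8 and 0.667, 0.956 and 0.398 CPM in MOSE-NEO (log2 fold change -1.95 ± 0.44 SE, edgeR adjusted p = 0.00889, and 0.0552 without the lincRNA-rich libraries). Frzb, a Frizzled-related protein, had 13 counts in MOSE-PAX8 and 47 in MOSE-NEO (log2 fold change -2.12 ± 0.59 SE, edgeR adjusted p = 0.024). Apcdd1, a membrane-bound inhibitor that is also a beta-catenin target, had 1.13 ± 0.386 CPM in MOSE-PAX8 and 2.23 ± 0.413 CPM in MOSE-NEO (SD, n = 3; edgeR adjusted p = 0.0313). The call of Frzb ended without MOSE-PAX8 replicate 1 (0.0741) or 2 (0.0588) or MOSE-NEO replicate 2 (0.0839). That of Apcdd1 ended without MOSE-PAX8 replicate 1 (0.0984) or 2 (0.0807), MOSE-NEO replicate 2 (0.104) or 3 (0.0544), or both lincRNA-rich libraries (0.0788).

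Among these 81 further genes, the planar cell polarity genes held the largest rises. Of 9 tested 5 rose and 1 fell, or 66.7% called, against 33.9% of all tested genes. Celsr2, a large adhesion receptor of this system, had 20.7, 35.2 and 28.8 CPM in MOSE-PAX8, against 0.477, 0.435 and 0.398 CPM in MOSE-NEO, with a log2 fold change of 6 ± 0.26 (SE, edgeR adjusted p = 2.24e-06). The neighbours of Celsr2 on chromosome 3 had a median of 0.41. Prickle1, a cytoplasmic polarity protein, had 8.56, 10.1 and 9.65 CPM in MOSE-PAX8 and 0.762, 0.696 and 0.598 CPM in MOSE-NEO, with a log2 fold change of 3.77 ± 0.18 (SE, edgeR adjusted p = 3.31e-06). Its paralog Prickle2 had 18.7, 17.3 and 17.6 CPM in MOSE-PAX8 and 11.8, 8.65 and 11.4 CPM in MOSE-NEO (log2 fold change 0.74 ± 0.13 SE, edgeR adjusted p = 0.00237). In each of these 3 genes all MOSE-PAX8 libraries were higher. Vangl1, a membrane polarity protein on chromosome 3, had a log2 fold change of -0.32 ± 0.08 (SE, edgeR adjusted p = 0.0156) beside a local median of -0.55, and 0.23 with that median removed. Its call also ended without MOSE-PAX8 replicate 3 (0.0651) or MOSE-NEO replicate 3 (0.0524).

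Cytoplasmic components were mostly not called, with 3 of 17 higher, or 17.6%, beside 17.9% of all tested genes called higher. Gsk3a, a kinase that marks beta-catenin for destruction, had a log2 fold change of 0.26 ± 0.07 (SE, edgeR adjusted p = 0.02), Amer1, a scaffold of the destruction complex, 0.44 ± 0.1 (0.0103), and Apc2, a neuronal relative of the destruction complex scaffold, 0.86 ± 0.27 (0.0369). The call of Gsk3a ended without MOSE-PAX8 replicate 2 (0.0508) or 3 (0.0909), MOSE-NEO replicate 3 (0.0573) or both lincRNA-rich libraries (0.0619), and that of Amer1 without the lincRNA-rich libraries (0.0608). The libraries of Apc2 overlapped, with 3.33 CPM in MOSE-PAX8 library 3 and 3.34 CPM in MOSE-NEO library 1, and its call ended in 7 of 15 alternatives, at an edgeR adjusted p of 0.221 with the local median removed. Ctnnb1, which encodes beta-catenin, had 625, 536 and 599 CPM in MOSE-PAX8 and 539, 577 and 594 CPM in MOSE-NEO, and the lines overlapped (log2 fold change 0.04 ± 0.09 SE, edgeR adjusted p = 0.764).

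Of 12 nuclear genes 1 rose and 4 fell, Lef1 included, or 41.7% called, against 33.9% of all tested genes. The beta-catenin coactivator genes Bcl9, Bcl9l and Pygo2 had 70.7 ± 8.49, 113 ± 13.9 and 73.3 ± 2.59 CPM in MOSE-PAX8 and 109 ± 13.1, 160 ± 5.06 and 115 ± 7.78 CPM in MOSE-NEO (SD, n = 3), and in each the MOSE-PAX8 libraries were lower than all MOSE-NEO libraries. Their log2 fold changes were -0.63 ± 0.12, -0.51 ± 0.1 and -0.65 ± 0.08 (SE, edgeR adjusted p = 0.00352, 0.00421 and 0.00038). Bcl9 and Pygo2 lie on chromosome 3 among genes with medians of -0.45 and -0.54, and with the local median removed neither was called (edgeR adjusted p = 0.292 and 0.36). Bcl9l, on chromosome 9, kept its call in all 15 alternatives run. The corepressor gene Tle1 was higher, with 20.6 ± 0.778 CPM in MOSE-PAX8 and 15.9 ± 0.933 CPM in MOSE-NEO (SD, n = 3; edgeR adjusted p = 0.0101). At the surface, Ptk7, a receptor-like polarity protein, was lower, with 497, 452 and 458 CPM in MOSE-PAX8 and 576, 660 and 628 CPM in MOSE-NEO (edgeR adjusted p = 0.00739). Gpc4, a heparan sulphate proteoglycan that binds Wnts, was higher, with 128 ± 9.63 CPM in MOSE-PAX8 and 87.1 ± 4.23 CPM in MOSE-NEO (SD, n = 3; edgeR adjusted p = 0.00112).

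**Figure D4:**
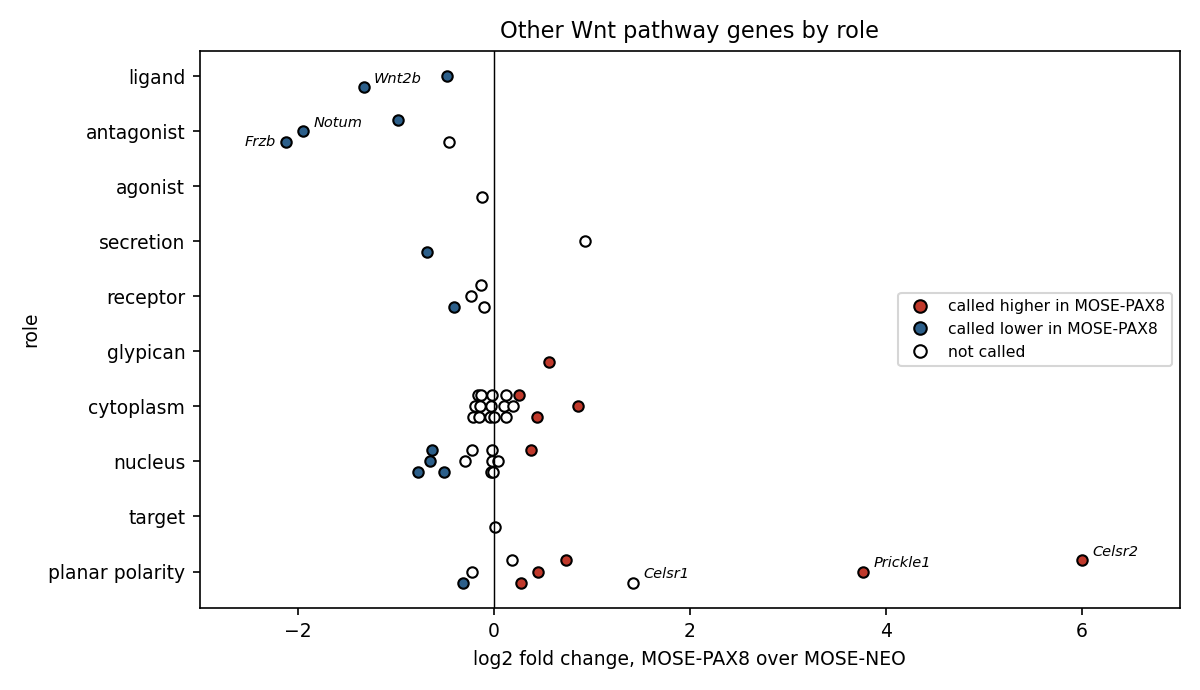
Log2 fold change, MOSE-PAX8 over MOSE-NEO, of 53 further Wnt pathway genes by role, 1 point per gene; red points were called higher in MOSE-PAX8, blue points lower, and white points were not called. Celsr2 at 6 and Prickle1 at 3.77 stand apart on the right in the planar polarity row, while most cytoplasmic genes lie near 0.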

How the data were processed

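RNA sequencing counts of 6 libraries were compared, 3 of MOSE-PAX8 and 3 of MOSE-NEO, grouped by their titles. Each deposited table holds unnormalized counts for Ensembl genes in 1 library. The submitters' processing notes name cutadapt 1.13, STAR, HTSeq 0.6.1p1, DESeq2 and the mm10 build; their annotation, strand setting and treatment of multi-mapping reads are not given in the sources used, so genes with close copies or overlaps are uncertain. Symbols, coordinates and exon lengths came from GENCODE M21 on the same build (24991 of 25006 identifiers matched).

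MOSE-PAX8 was tested against MOSE-NEO in edgeR (version 4.0.16, under R 4.3.3) by quasi-likelihood, using filterByExpr, TMM factors and Benjamini-Hochberg adjustment over all tested genes. Each SE is the log2 fold change over the square root of F. A count of 0 allows up to 3 counts; limits and exact 95% intervals cover counting error only. The labels do not say whether cultures were separate, and p-values then reflect just library-to-library spread, possibly technical. The fit was tested on simulated data.

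The members and lists were chosen with earlier results of these data known. All 38 members are accounted for; of the other pathway genes, up to 3 called genes per role and direction with the smallest adjusted p are named, and always Ctnnb1, Lef1, Wls and Porcn. Alternatives were DESeq2 1.42.0, limma-voom (limma 3.58.1), scaling by RLE or by upper quartile, testing unfiltered genes or those with 1 CPM in 3 libraries, a replicate block, leaving out each library, both lincRNA-rich libraries left out, and removal of the local median log2 fold change of the nearest 25 tested genes on each side.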

Additional observations from a re-analysis of the deposited data

How the results depend on the processing

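Of the 12 called Wnt pathway genes, 9 kept their call and direction in all 15 alternatives, and Wnt7b, Fzd1 and Fzd7 lost the call in at least 1 but kept the direction. With the local chromosome median removed, 6 of the 23 tested genes were called lower in place of 3, and 10 higher in place of 9. Over all tested genes, 1581 were then called lower in place of 1979 and 1713 higher in place of 2199. Without the lincRNA-rich libraries, 6 of the further pathway genes were called higher in place of 10, and 1834 of all tested genes in place of 2199. Over all genes, 1314 to 1843 were called lower with 1 library left out in turn, in place of 1979, the lowest without MOSE-PAX8 replicate 3; the cause was not tested. The further pathway genes called higher were 7 to 10 with 1 library left out. Among the genes named, the sign turned only in ones that were not called, apart from Vangl1 (0.23 with the local median removed). These were Wnt10b (-0.58 to 0.29 on the log2 scale with 1 library left out, 0.29 without MOSE-NEO replicate 1, and 0.02 without the lincRNA-rich libraries), Fzd2 (-0.04 with the local median removed), and, with 1 library left out, Fzd5 (-0.07 to 0.08), Fzd6 (-0.21 to 0.06), Znrf3 (-0.02 to 0.22) and Ctnnb1 (-0.01 to 0.10). With the replicate number as a block, 2070 genes were called higher and 1863 lower, and 9 and 3 of the 38. Deviations of libraries with the same number correlated at -0.49, 0.06 and 0.48, which showed no regular pairing by number. The highest correlation, 0.67, was between the lincRNA-rich libraries, MOSE-PAX8 library 2 and MOSE-NEO library 1. A difference shared in that way can hide a pairing, so these values do not decide whether the numbers pair the samples. Not every library correlated best with its own number. The block ended the calls of Wnt2b (edgeR adjusted p = 0.0561) and Lef1 (0.0518) among the genes named. Depth limits the 15 untested genes, whose ratios rest on few counts.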
